A study of Mus musculus with 12 samples.

Results

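Lysosomal hydrolases and lysosomal membrane proteins were followed as 42 genes in mouse embryonic fibroblasts (MEFs) of 2 genotypes, with and without the DNA-damaging drug etoposide. The members were picked by gene symbol from a fixed list that leaves out the cathepsins and the proton pump (V-ATPase). All 42 were found among the 24421 genes of the count table. All 42 also passed the filter on low counts, as did 15220 genes in all, which are the genes tested. Laptm5 and Gpnmb passed it only through groups in which they are high, as given with these genes. By role they form 9 groups: 12 glycosidases, 5 sulfatases, 4 lipid and thioester hydrolases, 2 peptidases, 3 soluble cofactors and carriers, 4 abundant membrane glycoproteins, 6 channels and transporters, 4 genes of the LAPTM family with Gpnmb, and 2 mannose 6-phosphate receptors.

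Soluble lysosomal hydrolases are made in the endoplasmic reticulum, tagged with mannose 6-phosphate, and carried by receptors from the Golgi to the acidic lysosome, where they break down glycans, lipids and proteins. The limiting membrane is lined by heavily glycosylated proteins and holds the channels and transporters that move cholesterol, amino acids and ions. TFEB and TFE3 are transcription factors of the MiT/TFE family that bind E-box sequences near the start of many lysosomal genes, and etoposide traps topoisomerase II on broken DNA and so activates p53.

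The study measured RNA in MEFs immortalized with SV40, either the line that the labels call Null or a line in which Tfeb and Tfe3 were disrupted by CRISPR (DKO). Null was taken as the wild type because it is the only other MEF genotype in this series. Cells of each genotype were left untreated (the study's methods give DMSO as the control) or were given 100 µM etoposide for 8 h, and each of the 4 groups has 3 libraries. There is 1 line per genotype, so what differs between the lines and what the disruption of Tfeb and Tfe3 brings cannot be told apart. The groups are called untreated Null, untreated DKO, treated Null and treated DKO here, and the comparisons ask how lysosomal transcripts differ between the genotypes, how they change with etoposide, and whether that change depends on the genotype.

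Counts assigned to genes ranged over 66956083 to 83970210 in the untreated Null libraries, 66749645 to 104120871 in untreated DKO, 63286195 to 76125320 in treated Null and 45577023 to 94388705 in treated DKO. Libraries of the same group differed by more than counting error, with chi-square values per degree of freedom of 11.1 to 23.0 over all genes. Levels are given in CPM (counts-per-million), each gene's counts scaled to a common library total with edgeR's TMM factors. Differences are log2 fold changes from edgeR's quasi-likelihood test, fitted over all genes and all 12 libraries, each with its standard error (SE) and a p-value adjusted over all genes tested, and a gene was called higher or lower where that adjusted p was under 0.05. The p-values measure the spread between these libraries, which may be technical, since nothing says that they came from separate cultures, and an exact permutation of 3 libraries against 3 cannot go below 0.1. Scaling matters for directions: with library size alone in place of TMM, the median over all genes tested moved by 0.17 (etoposide in Null), 0.27 (etoposide in DKO), -0.12 (DKO against Null, untreated) and 0.10 (difference between the etoposide changes). All changes are therefore relative to TMM scaling, and directions that passed the test and turn with another scaling are named where they are given. Counts in brackets are those by DESeq2's size factors or by library size alone if clearly different. The members' other turns under these scalings, and calls gained or lost under them without a turn, are listed at the end. RNA of whole cultures was measured, so fewer cells of a type and less RNA per cell cannot be told apart. The libraries are stranded but the strand setting of the counting is not given in the sources used here, so reads from genes that overlap on the other strand could be in the counts. Such overlaps cover 21.6% of the exon length of Sgsh (Card14), 39.9% of Arsb (Gm26527 and Gm47210), 18.8% of Arsa (C230037L18Rik), 12.8% of Hexa (Tmem202), 9.31% of Lamp1 (Grtp1) and 7.65% of Cln3 (Apobr). In Idua, Npc1, Ostm1, Scpep1, Ppt1, Galc and Grn they cover less, and Glb1 shares 5.49% with Tmppe on its own strand.

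Of the 2 targeted genes, Tfeb separates the genotypes in both treatments and Tfe3 only without etoposide. Tfeb was at 38.9, 39.2 and 42.1 CPM in the untreated Null libraries, 4.60, 6.09 and 4.68 in untreated DKO, 11.4, 10.2 and 10.4 in treated Null and 1.92, 1.61 and 2.20 in treated DKO. Each DKO library was under each Null library of the same treatment, and in both genotypes the treated libraries were under the untreated ones. DKO against Null was -2.95 on the log2 scale without etoposide (SE 0.10, edgeR adjusted p = 1.76e-13) and -2.46 after it (SE 0.12, adjusted p = 9.94e-12). Tfe3 read 115, 109.9 and 114 CPM in untreated Null and 94.1, 93.1 and 91.0 in untreated DKO, then 68.5, 69.6 and 68.1 in treated Null and 70.7, 71.2 and 63.4 in treated DKO. Its untreated DKO libraries were lower than untreated Null by a smaller step (log2 fold change -0.29, SE 0.041, adjusted p = 1.06e-05), and the treated groups overlap (-0.0072, SE 0.042, adjusted p = 0.887). Counts do not show whether a transcript still codes for protein. Mitf, another factor of the family, was at 8.63, 9.14 and 8.94 CPM without etoposide and 23.2, 22.6 and 22.3 with it in Null, and 42.9, 42.5 and 44.4 without and 14.6, 13.1 and 14.2 with it in DKO. Untreated DKO libraries were far above untreated Null (log2 fold change 2.28, SE 0.054, adjusted p = 1.04e-15), whereas treated DKO libraries were below treated Null (-0.70, SE 0.052, adjusted p = 2.63e-09). Tfec, the last factor of the family, had 0 counts in all 6 untreated libraries, which allows up to 3 counts in each. In treated libraries it was at 0.134, 0.0242 and 0.0438 CPM in Null and 0, 0.0273 and 0 CPM in DKO, too few to be tested. Limits and intervals of this kind cover counting error only.

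The known p53 targets Cdkn1a and Mdm2 rose with etoposide in both genotypes. Cdkn1a, the cell cycle inhibitor p21, was at 71.5, 65.6 and 60.1 CPM in the untreated Null libraries, 38.4, 39.8 and 40.7 in untreated DKO, 498, 511 and 510.0 in treated Null and 242, 254 and 227 in treated DKO. Treated libraries were above untreated ones in both genotypes and treated DKO lay below treated Null. The rise was 2.94 in Null (SE 0.057, adjusted p = 7.86e-17) and 2.60 in DKO (SE 0.057, adjusted p = 3.16e-16). Mdm2, which marks p53 for destruction, read 126, 122 and 115 CPM in untreated Null and 111, 109 and 106 in untreated DKO, then 1814, 1897 and 1791 in treated Null and 586, 595 and 585 in treated DKO. It rose by 3.92 in Null and 2.44 in DKO on the log2 scale, and the 2 rises differed by -1.48 (SE 0.050, adjusted p = 5.86e-13).

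The MEF label was checked against 9 fibroblast markers. They summed to 5088 to 5252 CPM in untreated Null, 8388 to 8720.1 in untreated DKO, 2823 to 2843 in treated Null and 3247 to 3439.5 in treated DKO. All 9 differ between the lines, with 8 higher and 1 lower in untreated DKO and 7 higher and 2 lower in treated DKO. Of all genes tested, 33.4% were higher and 34.1% lower in untreated DKO, and 36.9% and 35.2% in treated DKO. With etoposide 0 rose and 7 fell in Null and 1 rose and 8 fell (1 and 6 by library size) in DKO. Of all genes tested, 41.7% rose and 36.8% fell in Null, and 44% and 31.3% in DKO. The marker lower in untreated DKO, Thy1, was at 4.50, 4.10 and 4.03 CPM in untreated Null and 0.0602, 0.0326 and 0.0168 CPM in untreated DKO. The 4 epithelial markers summed to at most 5.92 CPM. Endothelial, leukocyte and melanocyte markers are given beside Laptm5 and Gpnmb.

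Within untreated Null, levels per kilobase of exon spread over several orders of magnitude. Psap led with 266 ± 5.80 CPM per kilobase (mean and SD, n = 3), ahead of Lamp1 with 243 ± 4.95 and Scpep1 with 97.3 ± 0.811. The same 3 genes led in this order in untreated DKO, with Psap at 397 ± 1.78, and in both treated groups. At the other end of the scale stood Cln3 with 0.276 ± 0.0589, Gpnmb with 0.0656 ± 0.0251 and Laptm5 with 0.00244 ± 0.00215 CPM per kilobase.

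Because TFEB and TFE3 bind E-boxes, promoter windows were searched for CACGTG and for the longer TCACGTGA that holds it, both of which read the same on either strand. The windows, from RefSeq on mouse build GRCm38.p6, run from 250 bases before to 50 bases after a gene's start, and 37 of the 42 members have at least 1 (Asah1, Galns, Laptm4b, M6pr and Npc1 have none). CACGTG was found in 11 of 37 members (29.7%), against 2187 of 27025 genes with a window (8.09%) and 2349 of 32851 windows (7.15%). For TCACGTGA the counts were 5 of 37 members (13.5%), 304 of 27025 genes (1.12%) and 320 of 32851 windows (0.974%). Of the further lysosomal genes described last, 5 of 20 with a window hold CACGTG (25%) and 3 of 20 the longer form (15%). The 11 members are Arsa, Clcn7, Cln3, Gaa, Gla, Glb1, Igf2r, Lamp1, Mcoln1, Naglu and Sgsh, and Clcn7, Cln3, Gla, Igf2r and Mcoln1 hold the longer form. A match is a description, not a site or a cause. The stretches printed here, shown because the members' differences between the genotypes are described below, lie before the start and in no exon of the member itself, and are read 5′ to 3′ on the gene's strand with CACGTG in capitals. Lamp1 has 4 copies within chr8:13159088-13159160 (plus strand). Gaa has its copy at chr11:119267811-119267840 (plus strand), Glb1 at chr9:114401018-114401047 (plus strand) and Clcn7 1 of its 2 at chr17:25133364-25133390 (plus strand), and Igf2r has copies at chr17:12769737-12769766 and chr17:12769707-12769725 (minus strand). None of these stretches lies in an exon of the GENCODE annotation. The other copy of Clcn7, the longer form, lies after the start and is not printed. The stretches around copies before the start of Arsa, Cln3, Mcoln1, Naglu and Sgsh overlap exons of these genes. They are not printed either, although some of the copies themselves lie outside the exons. The stretches of Gla at chrX:134601215-134601244 and chrX:134601182-134601211 (minus strand) overlap an exon of the neighbouring gene Hnrnph2.
Lamp1: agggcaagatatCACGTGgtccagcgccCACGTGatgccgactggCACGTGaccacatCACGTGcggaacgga
Gaa: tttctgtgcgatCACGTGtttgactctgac
Glb1: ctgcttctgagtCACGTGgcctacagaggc
Clcn7: tccgtcgtcagtCACGTGggcaccgat
Igf2r, farther copy: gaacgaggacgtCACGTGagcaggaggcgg
Igf2r, nearer copy: gccgactcaggtCACGTGa
Gla, farther copy: taagcgattgatCACGTGagcatctacgtc
Gla, nearer copy: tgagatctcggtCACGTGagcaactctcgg

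Summed over all 42 members, the libraries held 3774 to 3849 CPM in untreated Null, 4621 to 4651 in untreated DKO, 4204 to 4332 in treated Null and 4519 to 4613 in treated DKO. Untreated Null was the lowest.

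**Figure D1:**
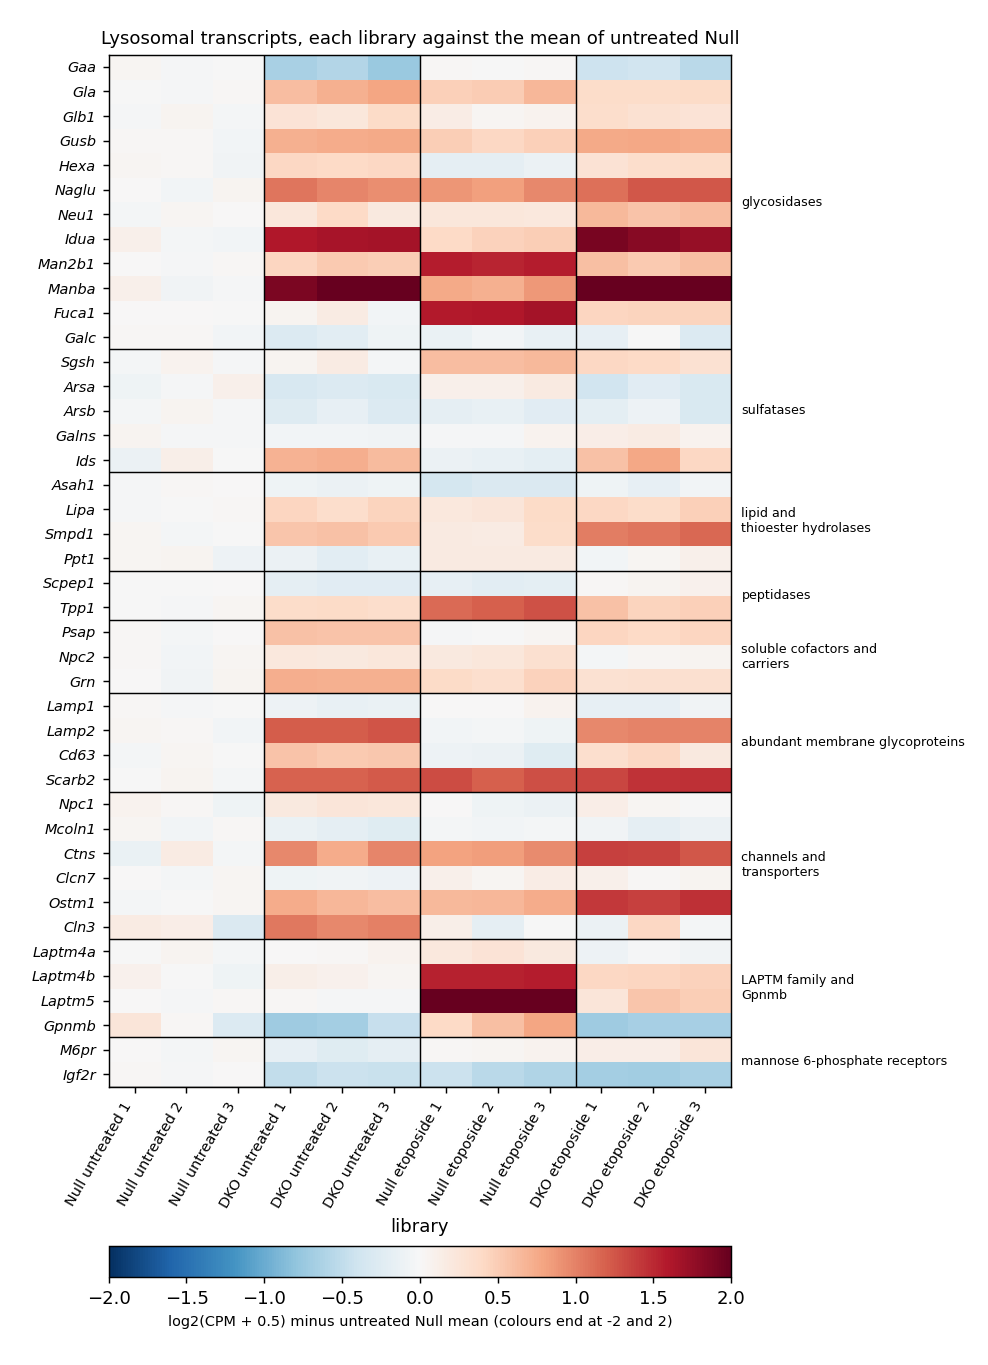
Each box gives log2 of a member's CPM plus 0.5 in 1 library minus the mean of untreated Null, with members by role from top to bottom and the 12 libraries by group from left to right. Manba and Idua stand out in both DKO groups, and Fuca1, Man2b1, Laptm4b and Laptm5 in treated Null, where library size alone as scaling gives these genes the same directions.

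Without etoposide, more members were higher in DKO than lower. Of the 42 members 23 were higher and 12 lower (22 and 15 by library size) in DKO, against 33.4% and 34.1% of all genes tested called in each direction, and 7 did not pass the test. The members' median log2 fold change was 0.25, beside -0.022 for all genes, of which 5080 were higher and 5183 lower (3997 and 6473 by library size). The 35 called members all had groups of 3 libraries that do not overlap, as had 97.2% of the 10263 genes called in all. The largest rises were in Manba (2.15), Idua (1.97) and Lamp2 (1.23), and the largest falls in Gpnmb (-2.12), Gaa (-0.66) and Igf2r (-0.46).

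After etoposide, too, more members were higher in DKO than lower, although not with DESeq2's size factors. Of the members, 21 were higher and 15 lower (16 and 18 by DESeq2's factors, 19 and 16 by library size) in DKO, beside 36.9% and 35.2% of all genes, and 6 did not pass. Their median was 0.12, against -0.0039 over all genes, of which 5612 were higher and 5351 lower (4991 and 5866 by DESeq2's factors, 5451 and 5477 by library size), and it stood at 0.019 without treated DKO library 2. By DESeq2's factors the medians were 0.058 and -0.064. Of the 36 called members, 33 had groups of libraries that do not overlap (91.7%), beside 97.1% of the 10963 genes called in all. Manba (1.63), Idua (1.58) and Lamp2 (1.04) again had the largest rises, while Gpnmb (-3.53), Laptm5 (-3.43) and Fuca1 (-1.18) had the largest falls. No library is shared between the untreated and the treated comparison of genotypes. Both called 17 members higher in DKO, which is 73.9% of the 23 higher without etoposide and 81.0% of the 21 higher after it, where over all genes the shares were 67.6% and 61.2%. Both called Arsa, Gaa, Gpnmb, Igf2r, Lamp1 and Ppt1 lower, 6 genes that are 50% of the 12 and 40% of the 15, beside 58.9% and 57.0% over all genes. Direction turned for 7 members: Gla, Man2b1, Npc2 and Tpp1 were higher in untreated DKO and lower in treated DKO, and Asah1, M6pr and Scpep1 went from lower to higher. No share of all genes that turn is given, so whether 7 members are many or few was not tested.

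**Figure D2:**
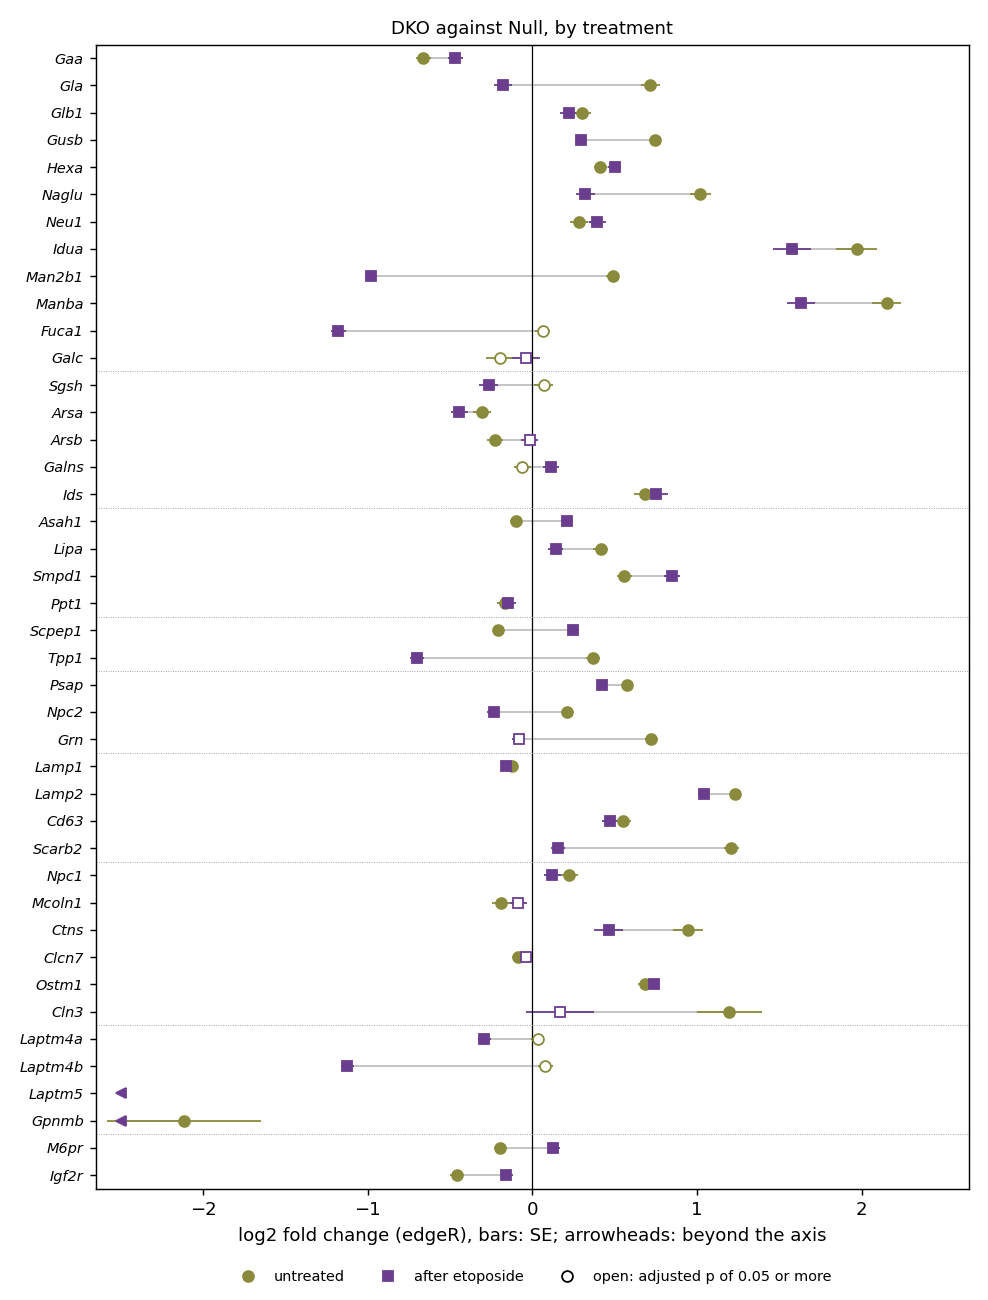
Points give each member's log2 fold change of DKO against Null, circles without etoposide and squares after it, with bars for the SE, open symbols for an adjusted p of 0.05 or more and arrowheads for values beyond the axis, while Laptm5 without etoposide is not drawn. Man2b1 lies at 0.49 without and -0.98 after etoposide, and Scpep1 at -0.21 and 0.25, each with the same signs under the other scalings.

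Etoposide raised more members than it lowered in Null. Of the members, 24 rose and 6 fell (27 and 5 by DESeq2's factors, 32 and 2 by library size), beside 41.7% and 36.8% of all genes tested, and 12 did not pass. The median of the members was 0.20, against 0.067 over all genes, of which 6342 were higher and 5598 lower (7656 and 4350 by library size). Of the 30 called members, 29 had groups of libraries that do not overlap (96.7%), beside 97.6% of the 11940 genes called in all. Laptm5, which is close to absent without the drug, and then Fuca1 (1.63) and Man2b1 (1.56) had the largest rises, and Igf2r (-0.52), Asah1 (-0.31) and Scpep1 (-0.20) the largest falls.

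Of the members in DKO, 19 rose and 10 fell (33 and 2 by library size) with etoposide, beside 44% and 31.3% of all genes, and 13 did not pass. The members' median was 0.053, below the 0.14 of all genes, of which 6702 were higher and 4757 lower (9351 and 2975 by library size), and it ran from 0.015 without untreated DKO library 1 to 0.096 without library 3. Besides Laptm5 the largest rises were in Ostm1 (0.74) and Smpd1 (0.53), and the largest falls in Cln3 (-1.08), Grn (-0.41) and Gla (-0.34), falls that keep their sign with library size alone. All 29 called members had groups of libraries that do not overlap, as had 96.1% of the 11459 genes called in all. The responses of the 2 genotypes share no library. Both called 15 members higher, 62.5% of the 24 in Null and 78.9% of the 19 in DKO, beside 72.9% and 69.0% over all genes. Cd63 and Igf2r were called lower in both (33.3% of 6 and 20% of 10, beside 65.6% and 77.2% over all genes), although with library size alone Igf2r turned in DKO (0.053) and Cd63 in both (0.015 and 0.044). Gla, Grn, Laptm4a and Npc2 rose in Null and fell in DKO, where library size alone turned Laptm4a (0.17) and Npc2 (0.082) and ended the call of Gla (-0.062). Scpep1 fell in Null, a call that library size alone ended (-0.028), and rose in DKO. Galc, Glb1, Ids, Lamp1 and Mcoln1 passed the test in neither genotype.

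**Figure D3:**
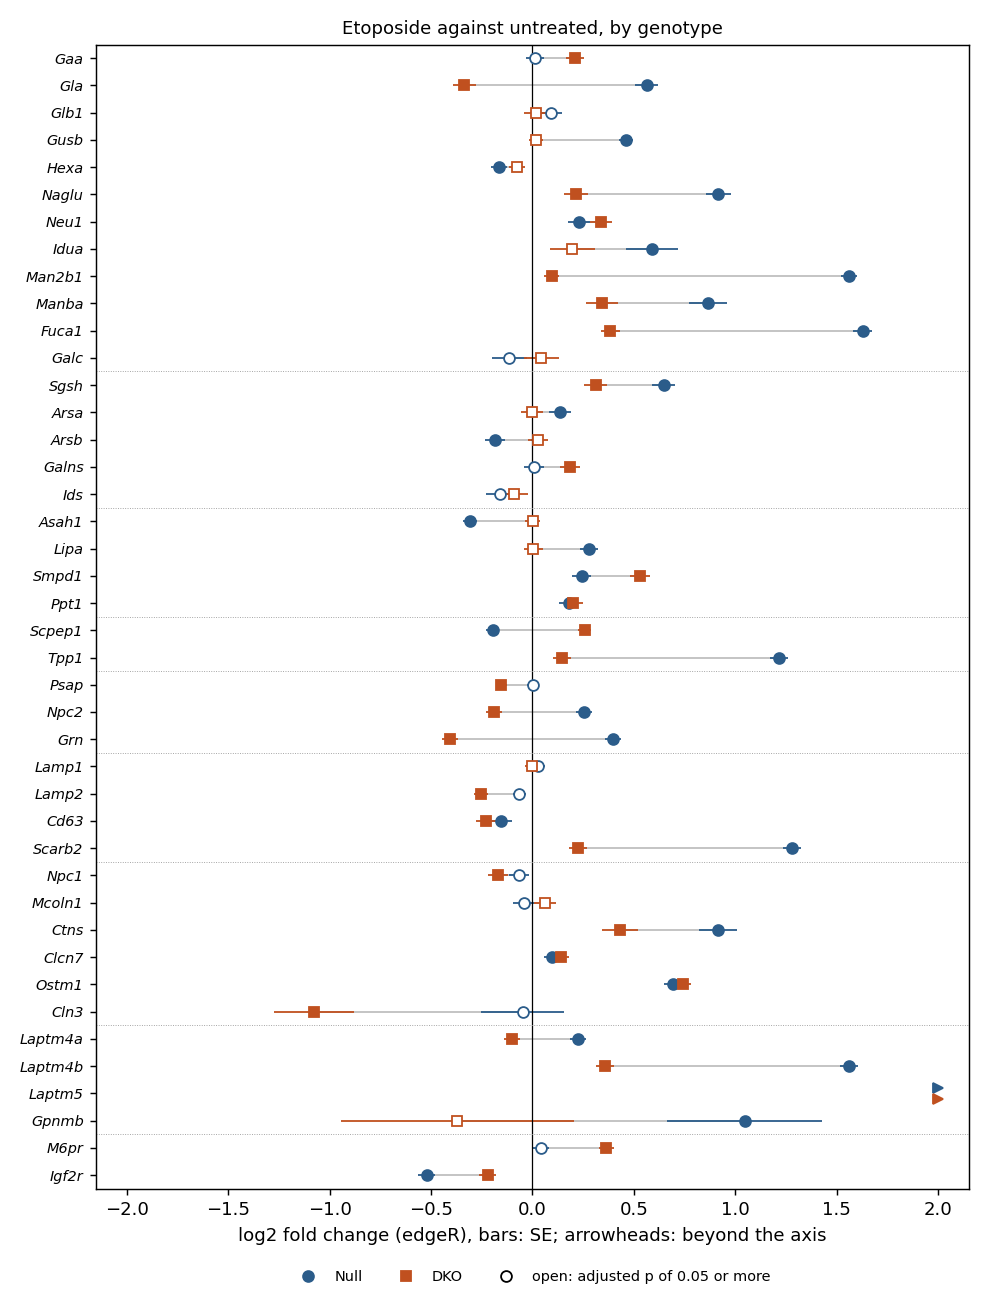
Points give each member's log2 fold change with etoposide, circles in Null and squares in DKO, with bars for the SE, open symbols for an adjusted p of 0.05 or more and arrowheads for Laptm5, which lies beyond the axis. Fuca1 lies at 1.63 in Null and 0.38 in DKO and Grn at 0.40 and -0.41, each with the same signs under the other scalings.

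The interaction tests whether the response to etoposide differs between the genotypes, as DKO minus Null. Among the members it was positive in 8 and negative in 18 (5 and 20 by DESeq2's factors, 13 and 16 by library size), beside 29.9% and 24.7% of all genes, and 16 did not pass. The count of higher members fell to 5 without treated DKO library 2. The median was -0.14 for the members (-0.21 by DESeq2's factors, -0.039 by library size) and 0.049 for all genes (-0.014 and 0.15), of which 4553 were higher and 3757 lower (3862 and 4236 by DESeq2's factors, 5782 and 3110 by library size). Man2b1 (-1.47), Fuca1 (-1.24) and Laptm4b (-1.20) had the most negative values that passed, and Scpep1 (0.45), M6pr (0.32) and Asah1 (0.31) the most positive.

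Glycosidases, which strip sugars from glycoproteins, glycolipids and glycosaminoglycans, were mostly higher in untreated DKO. Of 12, 9 were higher and 1 lower in untreated DKO, with a median of 0.45, and 7 were higher and 4 lower after etoposide, with a median of 0.26. With etoposide 8 rose and 1 fell (10 and 0 by library size) in Null (median 0.51) and 6 rose and 1 fell (5 and 2 by DESeq2's factors, 11 and 0 by library size) in DKO (median 0.15), and the interaction was positive in 1 and negative in 6 (0 and 7 by DESeq2's factors, 3 and 6 by library size). Over all genes tested, 33.4% were higher and 34.1% lower in untreated DKO, and 36.9% and 35.2% after etoposide. With etoposide 41.7% rose and 36.8% fell in Null and 44% and 31.3% in DKO, and 29.9% and 24.7% passed for the interaction. These shares stand beside the counts of this and every later role group. Their summed level was 353 to 361 CPM in untreated Null, 437 to 454 in untreated DKO, 578 to 600.5 in treated Null and 472 to 477 in treated DKO. The groups do not overlap, and treated Null was the highest.

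Manba, the beta-mannosidase that removes the last mannose of N-glycans (chr3:135485611-135571404, plus strand), had the largest rise in DKO. Its level was 3.50, 3.06 and 3.20 CPM in the untreated Null libraries, 13.4, 14.4 and 15.7 in untreated DKO, 5.82, 5.67 and 6.36 in treated Null and 19.4, 18.5 and 17.4 in treated DKO. All 6 DKO libraries were above all 6 Null libraries, and within each genotype treated libraries were above untreated ones. DKO was 4.44-fold higher without etoposide (log2 fold change 2.15, SE 0.090, adjusted p = 1.6e-12) and 3.10-fold higher after it (1.63, SE 0.084, adjusted p = 2.18e-11). Etoposide raised it by 0.87 in Null and 0.34 in DKO, an interaction of -0.52 (SE 0.12, adjusted p = 0.00166). Idua cuts iduronic acid from heparan and dermatan sulfate (chr5:108660331-108684557, plus strand). It was at 1.40, 1.23 and 1.20 CPM in untreated Null and 4.90, 5.06 and 5.12 in untreated DKO, then 1.84, 1.95 and 2.00 in treated Null and 6.09, 5.79 and 5.45 in treated DKO. All DKO libraries again lay above all Null libraries, and treated libraries above untreated ones within each genotype. The genotype difference was 1.97 without etoposide (SE 0.12, adjusted p = 3.15e-10) and 1.58 after it (SE 0.12, adjusted p = 2.27e-09). With etoposide it rose by 0.59 in Null, and in DKO the value was 0.20 (adjusted p = 0.112). The interaction of -0.39 did not pass (adjusted p = 0.0608), and without untreated Null library 1, Idua was past the threshold, at -0.47.

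Fuca1 and Man2b1 responded to etoposide far more in Null than in DKO. Fuca1, which removes fucose (chr4:135920735-135940311, plus strand), read 35.3, 35.1 and 35.0 CPM in the untreated Null libraries, 36.6, 39.4 and 33.9 in untreated DKO, 106, 107 and 112 in treated Null and 47.7, 47.8 and 48.3 in treated DKO. Untreated libraries of the genotypes overlap, treated Null libraries were the highest, a 3.09-fold rise, and treated DKO libraries lay between. The rise was 1.63 in Null (SE 0.045, adjusted p = 4.22e-15) and 0.38 in DKO (SE 0.045, adjusted p = 8.8e-07), with an interaction of -1.24 (SE 0.063, adjusted p = 7.83e-11). DKO against Null was 0.063 without etoposide and did not pass (adjusted p = 0.232), although without untreated DKO library 3, Fuca1 was past the threshold, at 0.12. After etoposide it was -1.18 (SE 0.044, adjusted p = 4.05e-13). Man2b1, the lysosomal alpha-mannosidase (chr8:85083270-85098282, plus strand), was at 61.9, 60.5 and 63.0 CPM without etoposide and 185, 178 and 184 with it in Null, and 83.6, 89.4 and 86.7 without and 93.8, 89.4 and 94.5 with it in DKO. Untreated DKO was above untreated Null, while treated Null was above every other group and the DKO groups meet at 89.4 CPM. Etoposide raised it by 1.56 in Null (SE 0.037, adjusted p = 7.23e-16) and by 0.096 in DKO (SE 0.036, adjusted p = 0.026). The rise in DKO rests on single libraries: without untreated DKO library 1, 2 or 3 or treated DKO library 1 or 3, Man2b1 lost its call, at 0.042, 0.089, 0.094, 0.068 or 0.069. DKO against Null was 0.49 untreated (adjusted p = 3.87e-09) and -0.98 after etoposide (adjusted p = 3.79e-13). The interaction of -1.47 was the members' most negative that passed (SE 0.052, adjusted p = 1.01e-12).

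Gla turned direction between the genotypes, and Gaa was lower in DKO throughout. Gla, the alpha-galactosidase whose promoter window holds the longer motif (chrX:134588149-134601125, minus strand), was at 21.3, 21.2 and 21.8 CPM in the untreated Null libraries, 33.1, 35.4 and 37.3 in untreated DKO, 29.9, 30.8 and 34.3 in treated Null and 27.9, 27.9 and 28 in treated DKO. Untreated DKO libraries were above untreated Null, treated Null reached their lower end, and treated DKO lay below treated Null. Etoposide changed it by 0.56 in Null (SE 0.056, adjusted p = 8.53e-08) and by -0.34 in DKO (SE 0.055, adjusted p = 4.11e-05), a fall that lost its call with library size alone (-0.062), with an interaction of -0.90 (adjusted p = 5.48e-08). The genotypes differed by 0.72 untreated and -0.18 after etoposide (SE 0.055, adjusted p = 0.00757), and without treated Null library 3, Gla lost its call, at -0.12. Gaa, the acid alpha-glucosidase that breaks down glycogen and has CACGTG in its window (chr11:119267887-119285454, plus strand), read 84.6, 81.2 and 82.1 CPM in untreated Null and 52.7, 54.7 and 49.1 in untreated DKO, then 84.1, 82.1 and 84.2 in treated Null and 61.7, 62.9 and 56.6 in treated DKO. All DKO libraries were below all Null libraries, with no overlap. DKO was 1.58-fold lower without etoposide (log2 fold change -0.66, SE 0.045, adjusted p = 9.77e-10) and 1.38-fold lower after it (-0.47, SE 0.045, adjusted p = 6.25e-08). With etoposide Gaa rose by 0.21 in DKO and its value in Null was 0.015 (adjusted p = 0.769). The interaction of 0.19 passed, but without treated DKO library 1 or 2, Gaa lost its call, at 0.16 or 0.15.

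Glb1 and Hexa, the beta-galactosidase and the alpha chain of beta-hexosaminidase, were higher in DKO in both treatments. Glb1 (chr9:114401076-114474898, plus strand) was at 17.6, 18.6 and 17.3 CPM in the untreated Null libraries, 21.6, 21 and 23.4 in untreated DKO, 19.9, 18.4 and 18.7 in treated Null and 22.9, 22.2 and 21.6 in treated DKO. DKO libraries were above Null libraries in both treatments, by 0.30 untreated (SE 0.057, adjusted p = 0.000186) and 0.22 after etoposide (SE 0.057, adjusted p = 0.00194). Treated and untreated libraries overlap in each genotype, with 0.090 in Null (adjusted p = 0.159) and 0.015 in DKO (adjusted p = 0.813), both called higher with library size alone (0.26 and 0.29). Hexa (chr9:59539540-59565109, plus strand) read 51.2, 50.4 and 47.2 CPM in untreated Null and 66.3, 65.8 and 66.1 in untreated DKO, then 43.7, 43.5 and 45.7 in treated Null and 60.4, 63.4 and 64.0 in treated DKO. Again every DKO library was above every Null library, by 0.41 untreated and 0.50 after etoposide (adjusted p = 5.54e-08 and 4.16e-09). It fell by 0.16 with etoposide in Null (adjusted p = 0.00107), a direction that turned with library size alone (0.0038). In DKO its value of -0.077 did not pass (adjusted p = 0.0796) and turned with library size alone, where it was called higher (0.20), yet without untreated DKO library 1 or 2 or treated DKO library 2 or 3, Hexa was past the threshold, at -0.10, -0.11, -0.10 or -0.10. Gusb, Naglu and Neu1 were higher in DKO in both treatments, from 0.29 (Neu1) to 1.02 (Naglu) untreated and from 0.30 (Gusb) to 0.39 (Neu1) after etoposide. They rose with etoposide in Null by 0.23 to 0.92, and in DKO Naglu and Neu1 rose while Gusb was at 0.017 (adjusted p = 0.659). Galc, the enzyme of galactosylceramide breakdown, passed in none of the 5 comparisons, with values from -0.20 to 0.16, but without untreated DKO library 3, Galc was past the threshold, at -0.25 for DKO against Null untreated.

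Sulfatases remove sulfate from glycosaminoglycans and sulfatide, and there are 5. In untreated DKO 1 was higher and 2 lower, and after etoposide 2 were higher and 2 lower (1 and 2 by DESeq2's factors, 1 and 2 by library size). That is 20% and 40% of the 5 untreated, beside 33.4% and 34.1% of all genes tested. After etoposide it is 40% and 40%, near the 36.9% and 35.2% of all genes. With the drug 2 rose and 1 fell (3 and 0 by library size) in Null and 2 rose and 0 fell (5 and 0 by library size) in DKO. The interaction was positive in 2 and negative in 1 (0 and 2 by DESeq2's factors). Ids was higher in DKO in both treatments (0.69 and 0.75) and passed in neither response to etoposide (-0.16 and -0.092), values that library size alone turned (0.0098 and, called higher, 0.18). For those responses, without untreated Null library 1, Ids was past the threshold, at -0.22 in Null, and without treated DKO library 2, Ids was past the threshold, at -0.21 in DKO. Arsa was lower in DKO in both treatments (-0.31 and -0.44) and rose with etoposide in Null (0.13), but without untreated Null library 1 or 2 or treated Null library 3, Arsa lost its call, at 0.080, 0.12 or 0.099. Its interaction of -0.14 did not pass, although without untreated Null library 3, Arsa was past the threshold, at -0.19. Sgsh rose with etoposide in Null (0.65) and in DKO (0.31) and was lower in treated DKO than in treated Null (-0.27), with an interaction of -0.34. Arsb fell with etoposide in Null (log2 fold change -0.18) and was lower in untreated DKO (-0.23). The fall lost its call with library size alone (-0.016) and with a mean of at least 1 CPM (-0.098). Its interaction was 0.21, and without untreated DKO library 1 or treated DKO library 2, Arsb lost its call, at 0.18 or 0.15. Galns rose with etoposide in DKO (0.18) and was higher in treated DKO than treated Null (0.11), although these groups overlap, and without treated Null library 1 or 2 or treated DKO library 1 or 2, Galns lost its call, at 0.093, 0.091, 0.088 or 0.075. The interaction of Galns was 0.17, and without untreated Null library 1, untreated DKO library 1, 2 or 3, treated Null library 1 or 2 or treated DKO library 1 or 2, Galns lost its call, at 0.15, 0.16, 0.16, 0.17, 0.16, 0.15, 0.15 or 0.14.

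Of the 4 lipid and thioester hydrolases, Smpd1 was higher in all 5 comparisons and Asah1 turned between the genotypes. The counts were 2 higher and 2 lower in untreated DKO, 3 higher and 1 lower after etoposide, 3 higher and 1 lower with etoposide in Null and 2 higher and 0 lower (4 and 0 by library size) in DKO, and the interaction was positive in 2 and negative in 1. Smpd1, the acid sphingomyelinase that makes ceramide (chr7:105554360-105558389, plus strand), was at 59.5, 56.7 and 57.9 CPM in the untreated Null libraries, 85.5, 87.3 and 83.8 in untreated DKO, 66.0, 65.4 and 74.8 in treated Null and 119, 123 and 129 in treated DKO. The groups do not overlap and treated DKO was the highest. DKO was above Null by 0.56 untreated (SE 0.048, adjusted p = 1.96e-08) and 0.85 after etoposide (SE 0.048, adjusted p = 6.95e-11), and etoposide raised it by 0.24 in Null and 0.53 in DKO. The interaction was 0.29 (SE 0.067, adjusted p = 0.00166). Asah1, the acid ceramidase that breaks ceramide down (chr8:41340197-41374773, minus strand), read 117, 121 and 119 CPM in untreated Null and 111, 109.6 and 112 in untreated DKO, then 93.4, 97.7 and 97.1 in treated Null and 112, 107 and 114 in treated DKO. Treated Null was below the other groups, and untreated Null was above the DKO groups, which overlap. It fell with etoposide in Null by 0.31 (SE 0.036, adjusted p = 5.73e-07), and its value in DKO was 0.00088 (adjusted p = 0.984). The interaction was 0.31 (SE 0.050, adjusted p = 6.11e-05). DKO was lower untreated (-0.099) and higher after etoposide (0.21), and for the former, without untreated Null library 2 or 3 or untreated DKO library 2, Asah1 lost its call, at -0.086, -0.097 or -0.095. Lipa, the acid lipase for cholesteryl esters, was higher in untreated DKO (0.42) and in treated DKO (0.14), where the groups overlap, and without treated Null library 1 or 2 or treated DKO library 3, Lipa lost its call, at 0.10, 0.11 or 0.097. It rose with etoposide in Null (0.28) with an interaction of -0.28. Ppt1, a thioesterase that takes palmitate off proteins, was lower in DKO in both treatments (-0.17 and -0.15) and rose with etoposide in both genotypes (0.18 and 0.20).

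The 2 peptidases moved in opposite directions in Null. In untreated DKO 1 was higher and 1 lower, and after etoposide 1 was higher and 1 lower, while with the drug 1 rose and 1 fell (1 and 0 by library size) in Null and 2 rose and 0 fell in DKO. Scpep1, a serine carboxypeptidase (chr11:88924020-88955465, minus strand), was at 202, 204 and 206 CPM without etoposide and 181, 176 and 178 with it in Null, and 181, 175 and 175 without and 207, 211 and 217 with it in DKO. Treated Null and untreated DKO overlap, and both lie below untreated Null and treated DKO. Etoposide changed it by -0.20 in Null (SE 0.032, adjusted p = 3.3e-05, a call lost with library size alone, at -0.028) and by 0.26 in DKO (SE 0.032, adjusted p = 1.82e-06), the most positive interaction of all members at 0.45 (SE 0.046, adjusted p = 2.76e-07). DKO was -0.21 against Null untreated and 0.25 after etoposide. Tpp1, a tripeptidyl peptidase, was at 32.7, 32.5 and 33.8 CPM in untreated Null and 72.9, 76.3 and 80.3 CPM in treated Null. It rose by 1.21 in Null and 0.15 in DKO, with an interaction of -1.07 (adjusted p = 3.83e-10), and in DKO, without untreated DKO library 1 or treated DKO library 1, Tpp1 lost its call, at 0.12 or 0.088. It was higher in untreated DKO (0.37) and lower in treated DKO (-0.70).

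All 3 soluble cofactors and carriers were higher in untreated DKO (3 higher and 0 lower), with a median of 0.57, and after etoposide 1 was higher and 1 lower (1 and 2 by DESeq2's factors, 1 and 2 by library size). With etoposide 2 rose and 0 fell in Null and 0 rose and 3 fell (1 and 1 by library size) in DKO, and the interaction was positive in 0 and negative in 3. Grn, the precursor of the granulins (chr11:102430315-102437048, plus strand), read 105, 99.0 and 109 CPM in the untreated Null libraries, 174, 171 and 172 in untreated DKO, 137, 132 and 144 in treated Null and 129, 130.3 and 130.1 in treated DKO. Untreated DKO libraries were the highest and untreated Null the lowest, while treated Null lay just above treated DKO between them. It rose by 0.40 in Null (SE 0.040, adjusted p = 9.53e-08) and fell by 0.41 in DKO (SE 0.040, adjusted p = 9.24e-08), an interaction of -0.80 (SE 0.056, adjusted p = 3.64e-09). Untreated DKO stood at 0.72 against Null (adjusted p = 6.61e-11). After etoposide it was -0.083 and did not pass (adjusted p = 0.0708), although without treated Null library 2, Grn was past the threshold, at -0.12. Psap, the precursor of the saposins that help sphingolipid hydrolases, was at 746, 715 and 732 CPM in untreated Null and 1093, 1089 and 1083 CPM in untreated DKO. It was higher in DKO in both treatments (0.57 and 0.42) and lower with etoposide in DKO (-0.15), a direction that turned with library size alone (0.12). Npc2, the soluble cholesterol carrier, was higher in untreated DKO (0.21) and lower in treated DKO (-0.23). It rose with etoposide in Null (0.25) and fell in DKO (-0.19), which also turned with library size alone (0.082), and the interactions of Psap and Npc2 were -0.15 and -0.44.

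The 4 abundant membrane glycoproteins differed from each other between the genotypes, with 3 higher and 1 lower in untreated DKO and 3 higher and 1 lower after etoposide. With the drug 1 rose and 1 fell (2 and 0 by DESeq2's factors, 3 and 0 by library size) in Null and 1 rose and 2 fell (2 and 0 by library size) in DKO, and the interaction was positive in 0 and negative in 2. Lamp1, a main glycoprotein of the lysosomal membrane (chr8:13159161-13175338, plus strand), was at 662, 636 and 649 CPM in the untreated Null libraries, 607, 583 and 593 in untreated DKO, 655, 651 and 681 in treated Null and 582, 582 and 616 in treated DKO. DKO libraries lie below Null libraries in each treatment by a narrow margin, and treated and untreated libraries of a genotype overlap. DKO was lower by 0.13 untreated (SE 0.032, adjusted p = 0.00216) and by 0.16 after etoposide (SE 0.032, adjusted p = 0.000286). Etoposide gave 0.030 in Null and -0.0022 in DKO, neither past the test (adjusted p = 0.403 and 0.953), nor was the interaction (-0.032, adjusted p = 0.582). Library size alone turned the value in DKO, called both responses higher (0.20 and 0.27) and turned the interaction (0.074). Lamp2, the related glycoprotein that also serves chaperone-mediated autophagy (chrX:38401357-38456454, minus strand), read 216, 214 and 202 CPM in untreated Null and 490.2, 488 and 507 in untreated DKO, then 202, 205 and 198 in treated Null and 409.7, 418 and 417 in treated DKO. All 6 DKO libraries were above all 6 Null libraries, and treated DKO was below untreated DKO. The genotype difference was 2.35-fold untreated (log2 fold change 1.23, SE 0.034, adjusted p = 6.6e-15) and 2.06-fold after etoposide (1.04, SE 0.033, adjusted p = 5.93e-14). Lamp2 fell with etoposide in DKO (log2 fold change -0.25, adjusted p = 3.08e-06), which turned with library size alone (0.019), and the interaction was -0.19 (adjusted p = 0.00254). In Null its value of -0.064 did not pass (adjusted p = 0.0869) and turned with library size alone, where it was called higher (0.10), but without untreated Null library 3, Lamp2 was past the threshold, at -0.11. Scarb2, the receptor that brings glucocerebrosidase to lysosomes, was at 24.1, 25.2 and 23.6 CPM in untreated Null and 60.6, 56.0 and 60.2 CPM in treated Null. It rose with etoposide by 1.28 in Null and 0.23 in DKO (interaction -1.05, adjusted p = 4.77e-10) and was higher in DKO by 1.21 untreated and 0.15 after etoposide. Cd63, a tetraspanin, was higher in DKO (0.55 and 0.47). With etoposide it fell in Null (-0.15) and in DKO (-0.23), and both directions turned with library size alone (0.015 and 0.044). The call in Null was also lost with a mean of at least 1 CPM (-0.067).

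Among the 6 channels and transporters 4 were higher and 2 lower (4 and 1 by DESeq2's factors) in untreated DKO and 3 were higher and 0 lower (2 and 2 by DESeq2's factors) after etoposide. With etoposide 3 rose and 0 fell in Null and 3 rose and 2 fell (4 and 1 by library size) in DKO, and the interaction was positive in 0 and negative in 2 (3 and 2 by library size). Ostm1, the partner of the chloride/proton exchanger Clcn7 (chr10:42583822-42702459, plus strand), was at 33.2, 34.0 and 35.0 CPM in the untreated Null libraries, 57.3, 54.5 and 52.6 in untreated DKO, 53.6, 54.1 and 57.3 in treated Null and 91.6, 88.7 and 94.6 in treated DKO. Untreated Null was the lowest and treated DKO the highest, and treated Null and untreated DKO overlap in between. It rose with etoposide by 0.69 in Null (SE 0.042, adjusted p = 1.26e-10) and 0.74 in DKO (SE 0.041, adjusted p = 5.16e-11), and the interaction was 0.052 (adjusted p = 0.485). DKO was above Null by 0.69 untreated and 0.74 after etoposide. Cln3, the protein lost in a juvenile form of Batten disease (chr7:126571207-126585817, minus strand), was low, at 1.82, 1.77 and 1.20 CPM in untreated Null and 3.81, 3.57 and 3.66 in untreated DKO, then 1.76, 1.33 and 1.56 in treated Null and 1.42, 2.27 and 1.52 in treated DKO. Untreated DKO was above the other 3 groups, which overlap. DKO was 2.29-fold higher untreated (log2 fold change 1.20, SE 0.20, adjusted p = 4.66e-05) and its value after etoposide was 0.17 (adjusted p = 0.477). In DKO it fell by 1.08 with etoposide (SE 0.20, adjusted p = 0.000119), an interaction of -1.03 (adjusted p = 0.00574).

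Mcoln1, the calcium channel TRPML1 (chr8:3500457-3515232, plus strand), was at 20.6, 19.1 and 20.2 CPM without etoposide and 19.5, 19.2 and 19.5 with it in Null, and 18.1, 17.6 and 16.8 without and 19.0, 17.6 and 18.4 with it in DKO. DKO libraries lie below Null libraries in each treatment, and treated and untreated libraries of a genotype overlap. DKO against Null was -0.19 untreated (SE 0.053, adjusted p = 0.00445) and -0.085 after etoposide (adjusted p = 0.159), and etoposide gave -0.043 in Null and 0.062 in DKO (adjusted p = 0.461 and 0.299), while library size alone turned the first and called both higher (0.12 and 0.34). Npc1, which exports cholesterol from the lysosome, read 35.0, 34.1 and 31.5 CPM in the untreated Null libraries, 38.6, 39.8 and 39.2 in untreated DKO, 33.7, 31.6 and 30.8 in treated Null and 36.8, 34.5 and 33.4 in treated DKO. Untreated DKO was above every other group, and treated Null and treated DKO overlap. DKO was higher by 0.22 untreated (SE 0.051, adjusted p = 0.00094) and by 0.12 after etoposide (SE 0.051, adjusted p = 0.043), and for the latter, without treated Null library 2 or 3 or treated DKO library 1 or 2, Npc1 lost its call, at 0.10, 0.098, 0.064 or 0.11. With etoposide it fell in DKO (log2 fold change -0.17, adjusted p = 0.00692), which turned with library size alone (0.10). In Null the value of -0.066 did not pass (adjusted p = 0.245) and turned with library size alone (0.10), but without untreated Null library 3, Npc1 was past the threshold, at -0.12. Ctns, the cystine exporter, was higher in DKO (0.95 and 0.46) and rose with etoposide in Null (0.92) and DKO (0.43), with an interaction of -0.48. Clcn7 rose with etoposide in Null (0.096) and DKO (0.14) and was lower in untreated DKO (-0.085). These steps are small: without untreated Null library 1 or 2 or treated Null library 1 or 3, Clcn7 lost its call, at 0.088, 0.067, 0.086 or 0.064 for etoposide in Null, and without untreated Null library 1 or 3 or untreated DKO library 1, 2 or 3, Clcn7 lost its call, at -0.088, -0.066, -0.089, -0.10 or -0.077 for the genotypes.

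The LAPTM family and Gpnmb rose with etoposide in Null (4 higher and 0 lower), gave 2 higher and 1 lower (3 and 0 by library size) in DKO, and were lower in treated DKO than in treated Null (0 higher and 4 lower). Without etoposide the count was 0 higher and 1 lower in DKO, and the interaction was positive in 0 and negative in 2. Laptm4b, a membrane protein of late endosomes and lysosomes (chr15:34238028-34284302, plus strand), was at 32.4, 30.3 and 28.5 CPM in the untreated Null libraries, 33.0, 32.1 and 31.3 in untreated DKO, 89.0, 89.5 and 90.8 in treated Null and 40.8, 40.8 and 41.9 in treated DKO. Treated Null stood alone, treated DKO was just above the untreated groups, and these overlap. Etoposide raised it by 1.56 in Null (SE 0.043, adjusted p = 4.21e-15) and 0.36 in DKO (SE 0.043, adjusted p = 1.32e-06), an interaction of -1.20 (SE 0.061, adjusted p = 7.19e-11). After etoposide, DKO against Null was -1.12 (adjusted p = 4.36e-13). Untreated it was 0.079 and did not pass (adjusted p = 0.123), although without untreated Null library 1, Laptm4b was past the threshold, at 0.13. Laptm4a rose with etoposide in Null (0.22) and fell in DKO (-0.10), where library size alone turned it (0.17) and without untreated DKO library 3 or treated DKO library 1, Laptm4a lost its call, at -0.086 or -0.099. It was lower in treated DKO (-0.29) with an interaction of -0.32.

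Laptm5 is best known from lymphocytes and other leukocytes (chr4:130913125-130936141, plus strand), and it was all but absent without etoposide. The untreated libraries held 1, 0 and 1 counts in Null and 1, 0 and 0 in DKO, at or under the limit of 3, so no fold is given between them. In treated libraries it was at 2.43, 1.54 and 2.45 CPM in Null and 0.101, 0.246 and 0.218 CPM in DKO. All treated libraries were above all untreated ones, and all treated Null libraries above all treated DKO libraries. In Null 494 counts with etoposide stood against 2 without it, a ratio after scaling of 224 with an exact 95% interval of 61.6 to 1853. In DKO 45 stood against 1, a ratio of 43.9 (7.49 to 1774). Both rises passed edgeR's test (adjusted p = 3.5e-09 in Null and 5.07e-05 in DKO). However, Laptm5 passed the filter on low counts only through treated libraries, chiefly those of Null. The filter thus favoured a rise with etoposide and a lower level in treated DKO, and these tests are no independent support. Treated DKO against treated Null was -3.43 (SE 0.38, adjusted p = 4.56e-07), with a ratio of counts of 0.0951 (0.0684 to 0.129). The interaction did not pass (adjusted p = 0.366), although with limma-trend it did (-3.19, adjusted p = 0.000147), the lowest adjusted p of the alternatives, which reach 0.733. With both untreated groups at the floor, the limma-trend interaction cannot be told apart from the difference between the treated groups. It therefore does not show that the responses differ. The members' medians stayed 0.20 and 0.053 with Laptm5 at either bound of its interval.

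Gpnmb, a glycoprotein of macrophages and melanocytes also found in other cells (chr6:49036546-49070929, plus strand), was low throughout, at 0.590, 0.430 and 0.263 CPM in untreated Null and 0.0602, 0.0761 and 0.168 in untreated DKO, then 0.708, 0.896 and 1.08 in treated Null and 0.0607, 0.0819 and 0.0794 in treated DKO. Every DKO library was below every Null library, and treated and untreated DKO libraries overlap. DKO was 4.34-fold lower untreated (log2 fold change -2.12, SE 0.47, adjusted p = 0.000748) and 11.6-fold lower after etoposide (-3.53, SE 0.47, adjusted p = 3.59e-06). These folds rest on few counts: 48, 28 and 17 in untreated Null, 4, 7 and 10 in untreated DKO, 58, 74 and 74 in treated Null and 3, 6 and 8 in treated DKO. Gpnmb passed the filter on low counts only through Null, so the filter favoured a lower level in DKO. It rose in Null with etoposide (log2 fold change 1.05, SE 0.38, adjusted p = 0.0197), but without untreated Null library 2 or 3 or treated Null library 2 or 3, Gpnmb lost its call, at 1.04, 0.79, 1.04 or 0.89. In DKO the value of -0.37 did not pass (adjusted p = 0.569), and its sign turned without untreated DKO library 3 (0.13). The interaction of -1.42 did not pass either (adjusted p = 0.0963), but with limma-trend it did (-1.33, adjusted p = 0.0447), where the alternatives range up to 0.334.

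Leukocyte, melanocyte and endothelial markers are set beside these genes. The 9 leukocyte markers summed to 16.4 to 19.5 CPM in untreated Null, 7.55 to 9.31 in untreated DKO, 78.4 to 79.0 in treated Null and 12.4 to 15.1 in treated DKO. Most of that sum was Cd14, at 16.0, 17.8 and 14.3 CPM in untreated Null, 6.56, 5.92 and 5.84 in untreated DKO, 65.0, 64.6 and 63.6 in treated Null and 10.8, 8.44 and 10.1 in treated DKO. Of the 9, 6 had enough counts to be tested. With etoposide all 6 rose in Null and 5 in DKO, beside 41.7% and 44% of all genes. Ptprc and Itgam had 3 counts or fewer in every untreated library. They passed the filter on low counts only through treated libraries, so the filter favoured a rise. DKO against Null gave 1 higher and 2 lower (0 and 2 by library size) untreated, beside 33.4% and 34.1% of all genes. After etoposide it gave 0 higher and 3 lower, beside 36.9% and 35.2%. Cd68 was at 1.59, 1.20 and 1.54 CPM in untreated and 11.8, 11.5 and 12.5 CPM in treated Null, which was above all other groups. Csf1r, Ptprc, Itgam and Lyz2 were under 1 CPM in every library. In DKO, Csf1r had 42, 57 and 24 counts without etoposide and 14, 31 and 54 with it. Adgre1, Tyrobp and C1qa, which were not tested, had 6 counts or fewer in every library. The 5 melanocyte markers summed to 0.565 to 0.722 CPM in untreated Null, 0.331 to 0.609 in untreated DKO, 2.61 to 2.84 in treated Null and 2.17 to 2.47 in treated DKO. Mlana, Tyr, Dct and Tyrp1 had 0 counts in the untreated libraries. The 3 endothelial markers all rose with etoposide in both genotypes, beside 41.7% of all genes in Null and 44% in DKO. Their sum went from 0.0307 to 0.123 CPM in untreated to 0.890 to 1.39 in treated Null and from 0.0217 to 0.105 to 0.526 to 1.07 in DKO. They had 9 counts or fewer in every untreated library. They passed the filter on low counts only through treated libraries, so the filter itself favoured a rise. Any part of these markers' cells in the levels of Laptm5 and Gpnmb was not tested.

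**Figure D4:**
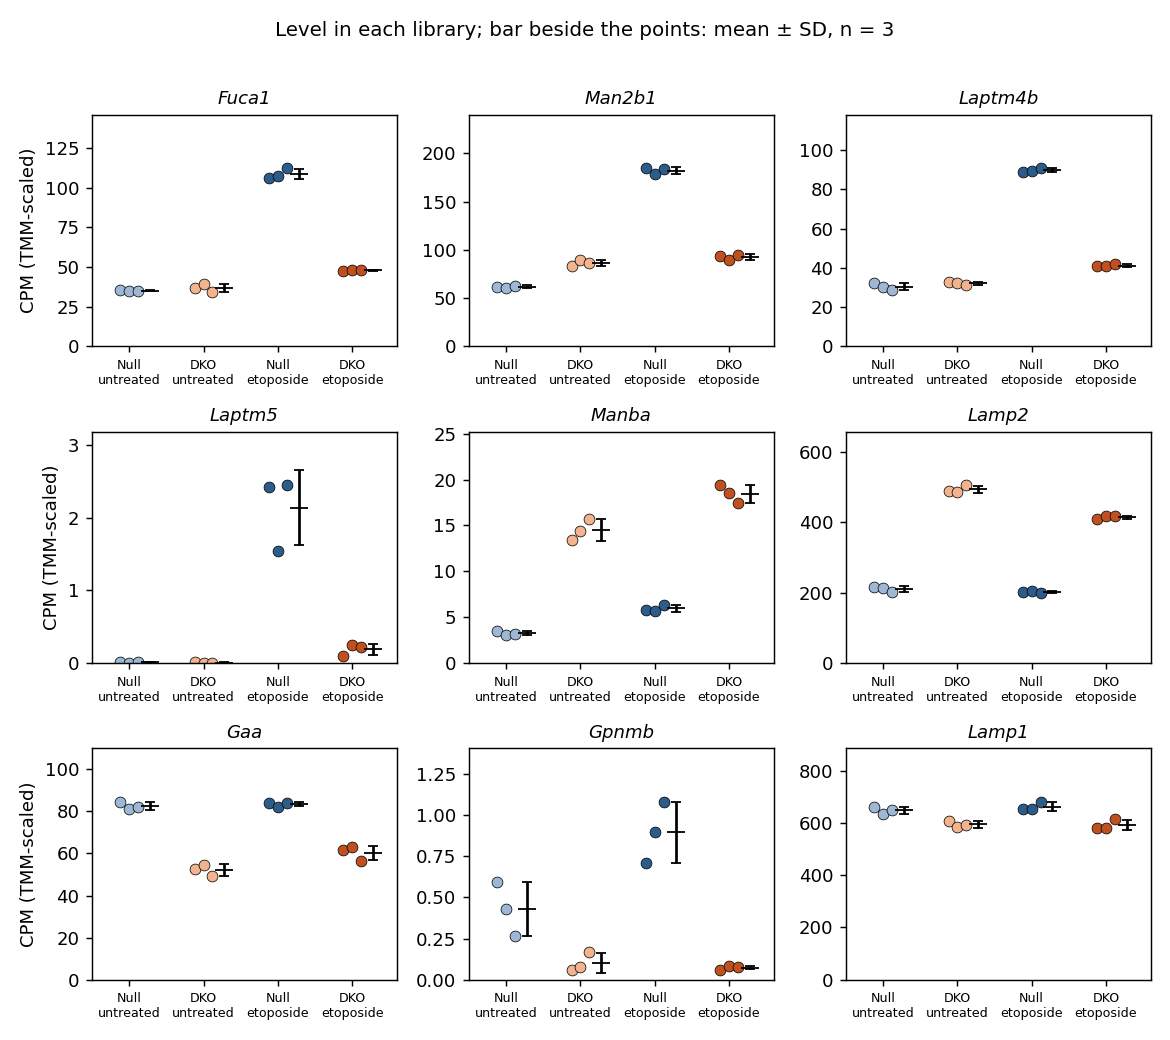
Each point gives the CPM of a gene in 1 library, and the bars beside the points the mean and SD of the 3 libraries of a group, on linear axes that start at 0. Treated Null libraries stand apart at 106, 107 and 112 CPM in Fuca1, and all DKO libraries are above all Null libraries in Manba and Lamp2 and below them in Gaa and Gpnmb, directions that hold with library size alone.

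Both mannose 6-phosphate receptors, which carry tagged hydrolases from the Golgi, were lower in untreated DKO (0 higher and 2 lower). After etoposide 1 was higher and 1 lower (0 and 1 by DESeq2's factors) in DKO, the drug itself gave 0 higher and 1 lower (1 and 1 by DESeq2's factors, 1 and 1 by library size) in Null and 1 higher and 1 lower (1 and 0 by library size) in DKO, and the interaction was positive in 2 and negative in 0. Igf2r, the large receptor that also binds IGF2 (chr17:12682406-12769664, minus strand), was at 193, 186 and 189.5 CPM in the untreated Null libraries, 134, 141 and 138 in untreated DKO, 141, 129.6 and 125 in treated Null and 118, 117 and 120.2 in treated DKO. Untreated Null stood above all other groups and treated DKO below them, and untreated DKO and treated Null overlap. It fell with etoposide by 0.52 in Null (SE 0.042, adjusted p = 4.81e-09) and by 0.22 in DKO (adjusted p = 0.000166), where library size alone turned the sign (0.053). The interaction was 0.30 (SE 0.059, adjusted p = 0.000351). DKO was lower by 0.46 untreated (adjusted p = 3.84e-08) and by 0.16 after etoposide (adjusted p = 0.00284), and its window holds 2 copies of the longer motif. M6pr, the small receptor (chr6:122308720-122317680, plus strand), read 225, 219 and 231 CPM in untreated Null and 202, 190.2 and 198 in untreated DKO, then 228, 231 and 236 in treated Null and 246, 248 and 266 in treated DKO. Untreated DKO was below all other groups and treated DKO above them, while the Null groups overlap. It rose with etoposide in DKO (log2 fold change 0.37, SE 0.038, adjusted p = 2.3e-07), and in Null its value was 0.044 (adjusted p = 0.307), an interaction of 0.32 (adjusted p = 8.68e-05). Between the genotypes it was -0.20 untreated and 0.13 after etoposide (adjusted p = 0.000252 and 0.00726), and for the latter, without treated DKO library 3, M6pr lost its call, at 0.076.

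Members with CACGTG in the promoter window and members without it are set side by side as a description, with no test. Without etoposide, of the 11 with the motif 4 were higher and 6 lower in DKO, with a median of -0.085, and of the 26 without it 18 were higher and 4 lower (18 and 6 by library size), with a median of 0.45. After etoposide the counts were 2 higher and 6 lower (2 and 8 by DESeq2's factors) with the motif (median -0.16) and 15 higher and 8 lower (13 and 9 by DESeq2's factors) without it (median 0.20). Etoposide in Null gave 5 higher and 1 lower (7 and 1 by DESeq2's factors, 9 and 1 by library size) with the motif (median 0.090) and 18 higher and 4 lower (20 and 0 by library size) without it (median 0.27). In DKO it gave 4 higher and 3 lower (8 and 1 by library size) with the motif (median 0.015) and 12 higher and 6 lower (21 and 1 by library size) without it (median 0.070). The interaction, where the order of the medians is the other way, was positive in 2 and negative in 4 (1 and 5 by DESeq2's factors, 4 and 4 by library size) with the motif (median -0.075, but 0.031 with library size alone) and positive in 3 and negative in 13 (6 and 11 by library size) without it (median -0.30). Beside these counts, 33.4% and 34.1% of all genes tested were higher and lower in untreated DKO, 36.9% and 35.2% in treated DKO, 41.7% and 36.8% with etoposide in Null, 44% and 31.3% with it in DKO, and 29.9% and 24.7% for the interaction.

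A list of 31 further lysosomal genes, made of other hydrolases, membrane proteins and the enzymes that tag or sort hydrolases, was read in the same fit. Beside the same shares of all genes, 18 were higher and 5 lower (14 and 9 by library size) in untreated DKO (median 0.16), and 18 were higher and 7 lower (14 and 7 by DESeq2's factors) after etoposide (median 0.21). With etoposide 12 rose and 9 fell (17 and 3 by library size) in Null (median 0.036) and 18 rose and 4 fell (18 and 6 by DESeq2's factors, 26 and 1 by library size) in DKO (median 0.22), and the interaction was positive in 13 and negative in 6 (11 and 8 by DESeq2's factors) (median 0.095). Hyal1, a hyaluronidase whose exons overlap Naa80 over 50.8% of their length on the same strand, was at 2.53, 2.20 and 2.41 CPM in the untreated Null libraries, 4.53, 5.06 and 4.60 in untreated DKO, 55.0, 51.8 and 52.8 in treated Null and 17.2, 16.4 and 17.4 in treated DKO. Treated libraries were far above untreated ones, and treated Null above treated DKO. It rose by 4.48 in Null (SE 0.069, adjusted p = 8.17e-18) and 1.84 in DKO (SE 0.064, adjusted p = 1.04e-13). Sort1, the sorting receptor sortilin, read 5.47, 6.25 and 5.36 CPM in untreated Null and 1.13, 0.956 and 0.973 in untreated DKO, then 4.67, 5.0 and 4.97 in treated Null and 2.33, 1.97 and 1.97 in treated DKO. All DKO libraries were below all Null libraries, with log2 fold changes of -2.48 untreated (adjusted p = 5.88e-11) and -1.24 after etoposide (adjusted p = 1.46e-07). Siae, a sialic acid esterase, read 5.58, 6.62 and 5.59 CPM in untreated Null and 13.1, 13.8 and 14.0 in untreated DKO, then 6.36, 6.31 and 6.80 in treated Null and 11.8, 12.1 and 12.4 in treated DKO. All DKO libraries were above all Null libraries, by 1.20 untreated and 0.90 after etoposide (adjusted p = 9.42e-10 and 2.74e-08). Gnptab, which encodes subunits of the enzyme that starts the mannose 6-phosphate tag, was at 30.2, 31.7 and 32.1 CPM without etoposide and 21, 21.9 and 24.2 with it in Null, and 45.0, 47.3 and 44.3 without and 43.8, 49.0 and 42.9 with it in DKO. DKO libraries were above Null libraries in both treatments, by 0.54 untreated and 1.02 after etoposide, and it fell with etoposide in Null (log2 fold change -0.49, adjusted p = 1.17e-06). Arsg, a sulfatase, was at 2.43, 2.64 and 3.29 CPM in the untreated Null libraries, 1.25, 1.07 and 0.755 in untreated DKO, 3.21, 3.21 and 3.16 in treated Null and 2.02, 2.88 and 2.18 in treated DKO. DKO libraries were below Null libraries in each treatment, at -1.43 on the log2 scale untreated (adjusted p = 5.99e-06) and -0.43 after etoposide, and without treated Null library 1, 2 or 3 or treated DKO library 1 or 3, Arsg lost its call, at -0.43, -0.43, -0.43, -0.36 or -0.38. Acp5, the tartrate-resistant acid phosphatase, read 0.0737, 0 and 0 CPM in untreated Null and 0, 0.0109 and 0 in untreated DKO, then 0.403, 0.291 and 0.321 in treated Null and 0.182, 0.109 and 0.179 in treated DKO. Treated libraries were above untreated ones, and it rose with etoposide in Null (log2 fold change 3.53, SE 0.75, adjusted p = 0.000431). Acp5 passed the filter on low counts only through treated libraries, so the filter favoured this rise. Lmbrd1, which lets cobalamin out of the lysosome, was at 32.2, 32.7 and 32.8 CPM without etoposide and 17.6, 20 and 19.4 with it in Null, and 42.5, 41.8 and 43.5 without and 27.6, 30.1 and 30.6 with it in DKO. Treated libraries were below untreated ones in each genotype, and it fell with etoposide in Null (log2 fold change -0.78, adjusted p = 5.43e-10).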

How the data were processed

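RNA was measured in 12 libraries of MEFs, 3 in each of 4 groups taken from the labels. The authors deposited whole counts per gene without normalization. The submitters' processing notes name HISAT2, featureCounts and mm10, whereas the paper's methods name HTSeq with the GENCODE comprehensive annotation, and the 5 summary lines of the table, in HTSeq's format, were left out. Of the read pairs 53.4% to 63.1% were assigned to genes, 20.2% to 27.3% to no feature, 15.9% to 20.5% were not unique and 0.428% to 0.513% ambiguous. Genes were filtered with filterByExpr by group, scaled with TMM and tested with glmQLFTest (R 4.3.3, edgeR 4.0.16) over all genes tested, with Benjamini-Hochberg adjustment and a threshold of 0.05. The SE is the log2 fold change over the root of the test's F. Genes given in every library were, in each comparison, the 3 members that rose most and the 3 that fell most (for groups of libraries, members whose groups do not overlap), with Lamp1, Lamp2, Laptm5, Gpnmb, Mcoln1, Npc1, Glb1, Hexa, Igf2r and M6pr, and of the further lysosomal genes the 2 of each kind in 3 comparisons. Members and lists were chosen with earlier results of these data known. Alternatives were DESeq2 1.42.0, limma-trend with robust settings (limma 3.58.1), DESeq2's size factors in edgeR, library size alone, no filter, a mean of at least 1 CPM, a replicate block, the 6 libraries of a comparison alone and each library left out. The fits were tested on simulated data: a first limit, set for all genes whatever their counts, was not met because of genes with low counts, and the limit was then set for genes with higher counts. Adjusted p-values of genes with low counts therefore come from fits that did not meet the first limit.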

Additional observations from a re-analysis of the deposited data

Results flagged for a closer look

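The change with etoposide differed between the genotypes in 26 of the 42 members, 8 positive and 18 negative (5 and 20 with DESeq2's size factors and 13 and 16 with library size alone), by the interaction test over all genes, of which 29.9% and 24.7% passed in these directions. Values are the log2 fold change with etoposide in DKO minus that in Null. Among glycosidases the difference was -1.47 for Man2b1, -1.24 for Fuca1, -0.90 for Gla, -0.70 for Naglu, -0.52 for Manba, -0.45 for Gusb and 0.19 for Gaa. It was -0.34 for Sgsh, 0.21 for Arsb and 0.17 for Galns, the sulfatases, and 0.31 for Asah1, 0.29 for Smpd1 and -0.28 for Lipa, the lipid hydrolases. The peptidases Tpp1 and Scpep1 were at -1.07 and 0.45. Grn was at -0.80, Npc2 at -0.44 and Psap at -0.15. Of the membrane proteins, Laptm4b was at -1.20, Scarb2 at -1.05, Cln3 at -1.03, Ctns at -0.48, Laptm4a at -0.32 and Lamp2 at -0.19. The receptors M6pr and Igf2r were at 0.32 and 0.30. The values of Gaa, Arsb and Galns lost their call when single libraries were left out, as given with each gene. Their calls also ended with DESeq2's size factors, and those of Psap and Lamp2 with library size alone. Laptm5 and Gpnmb passed with limma-trend only. Groups of 3 libraries were not tested for samples far from the others.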

How the results depend on the processing

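Of the values of single genes recomputed under the alternatives, those of members called or named in a comparison, 2443 kept their direction and their side of the threshold, 111 lost the call, 31 gained it and 31 changed sign. With each library left out in turn, 21 of 24 higher and 6 of 6 lower members kept their call with etoposide in Null, 17 of 19 and 9 of 10 in DKO, 23 of 23 and 10 of 12 between untreated genotypes, 17 of 21 and 14 of 15 between treated genotypes, and 5 of 8 and 18 of 18 for the interaction. A replicate block, tried because libraries share numbers across groups, ended 3 calls of members: Clcn7 between untreated genotypes (-0.084) and Galns between treated genotypes (0.11) and for the interaction (0.17). Over 18 pairs of the same number, r across genes ran from -0.032 to 0.043, with 0 pairs over 0.1, and over pairs of different numbers from -0.047 to 0.048, while 9 of 12 libraries had their highest mean r with their own number. With no filter the median of all genes moved by 0.24 with etoposide in Null and 0.12 in DKO. With DESeq2, the median of the members was 0.25 with etoposide in Null, 0.035 with etoposide in DKO, 0.057 between treated genotypes and -0.21 for the interaction, and the count of higher members was 5 for the interaction. Under DESeq2, the sign turned for Mcoln1 (0.0021) with etoposide in Null and for Glb1 (-0.0025) with etoposide in DKO. With DESeq2's size factors in edgeR, the median of the members was 0.25 with etoposide in Null, 0.035 with etoposide in DKO, 0.058 between treated genotypes and -0.21 for the interaction, and the count of higher members was 5 for the interaction. Under DESeq2's size factors in edgeR, the sign turned among all members for Mcoln1 (0.0025) with etoposide in Null, for Glb1 (-0.0024), Gusb (-0.00060), Asah1 (-0.017) and Lipa (-0.013) with etoposide in DKO and for Ppt1 (-0.045), Clcn7 (-0.016) and Ostm1 (-0.011) for the interaction. With library size alone, the count of lower members was 2 with etoposide in Null and 2 with etoposide in DKO, the median of the members was 0.37 with etoposide in Null, 0.33 with etoposide in DKO, 0.13 between untreated genotypes and -0.039 for the interaction, and the count of higher members was 33 with etoposide in DKO and 13 for the interaction. Under library size alone, the sign turned among all members for Hexa (0.0038), Galc (0.054), Ids (0.0098), Lamp2 (0.10, called), Cd63 (0.015), Npc1 (0.10), Mcoln1 (0.12, called) and Cln3 (0.12) with etoposide in Null, for Hexa (0.20, called), Arsa (0.27, called), Ids (0.18, called), Psap (0.12, called), Npc2 (0.082), Lamp1 (0.27, called), Lamp2 (0.019), Cd63 (0.044), Npc1 (0.10), Laptm4a (0.17, called) and Igf2r (0.053) with etoposide in DKO, for Fuca1 (-0.058), Sgsh (-0.053), Laptm4a (-0.088, called) and Laptm4b (-0.042) between untreated genotypes and for Glb1 (0.031), Lamp1 (0.074), Cd63 (0.029) and Npc1 (0.0032) for the interaction. With no filter, the median of the members was 0.17 with etoposide in Null and 0.013 with etoposide in DKO. Under no filter, the sign turned for Glb1 (-0.024) with etoposide in DKO. With etoposide in Null, no filter ended the calls of Arsa (0.11) and Clcn7 (0.068) and brought a call to Lamp2 (-0.092). With a mean of at least 1 CPM, the count of lower members was 3 with etoposide in Null, the median of the members was 0.24 with etoposide in Null, 0.089 with etoposide in DKO, 0.28 between untreated genotypes, 0.060 between treated genotypes and -0.17 for the interaction, and the count of higher members was 5 for the interaction. Under a mean of at least 1 CPM, the sign turned for Lamp2 (0.021), Npc1 (0.020) and Mcoln1 (0.043) with etoposide in Null and for Lamp1 (0.033) with etoposide in DKO. With etoposide in Null, this filter ended the calls of Hexa (-0.078), Arsb (-0.098) and Cd63 (-0.067). It brought calls there to Glb1 (0.18), Lamp1 (0.12) and M6pr (0.13). With the 6 libraries of a comparison alone, the median of the members was 0.21 with etoposide in Null, 0.023 with etoposide in DKO and 0.28 between untreated genotypes. Under the 6 libraries of a comparison alone, the sign turned for Glb1 (-0.015) with etoposide in DKO. With each library left out in turn, values ran as follows: the median with etoposide in Null from 0.17 to 0.21, the median with etoposide in DKO from 0.015 to 0.096, Glb1 with etoposide in DKO from -0.050 to 0.059, Gpnmb with etoposide in DKO from -0.64 to 0.13, the median between untreated genotypes from 0.21 to 0.27, the median between treated genotypes from 0.019 to 0.12, the count of higher members for the interaction from 5 to 8 and the median for the interaction from -0.17 to -0.13. Without a turn of sign, DESeq2's size factors in edgeR ended the call of Cd63 with etoposide in Null, of Man2b1 with etoposide in DKO, of Clcn7 between untreated genotypes, of Galns, Lipa, Scarb2, Npc1 and M6pr between treated genotypes and of Gaa, Arsb and Galns for the interaction. It brought calls to Glb1, Lamp1 and M6pr with etoposide in Null, to Hexa with etoposide in DKO, to Grn, Mcoln1 and Clcn7 between treated genotypes and to Idua and Arsa for the interaction. Without a turn of sign, library size alone ended the call of Arsb and Scpep1 with etoposide in Null, of Gla with etoposide in DKO, of Npc1 between untreated genotypes, of Galns and Npc1 between treated genotypes and of Psap and Lamp2 for the interaction. It brought calls to Gaa, Glb1, Galns, Psap, Lamp1 and M6pr with etoposide in Null, to Glb1, Gusb, Idua, Galc, Arsb, Asah1, Lipa and Mcoln1 with etoposide in DKO, to Galc and Galns between untreated genotypes, to Grn between treated genotypes and to Hexa, Neu1, Mcoln1, Clcn7 and Ostm1 for the interaction. With limma-trend, 3 calls of the genes recomputed ended, Clcn7 between untreated genotypes (-0.085) and Galns between treated genotypes (0.11) and for the interaction (0.17), and 2 began, Laptm5 (-3.19) and Gpnmb (-1.33) for the interaction. For changes that no value here accounts for, the cause was not tested. Depth limits what can be said of Laptm5 and Tfec, which had 3 counts or fewer in every untreated library.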

Other observations

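Among the 31 further lysosomal genes, 6 turned direction between the genotypes with etoposide, and these were chosen after their values were seen. For this count, too, no share of all genes is given, and whether it is many or few was not tested. Aga, Hyal1, Hyal2 and Prcp were higher in untreated DKO and lower in treated DKO. Hyal2, a hyaluronidase, was at 30.2, 32.8 and 34.1 CPM in the untreated Null libraries, 43.4, 41.8 and 40.9 in untreated DKO, 75.9, 73.7 and 81.8 in treated Null and 52.2, 53.1 and 51.1 in treated DKO. Treated Null was above every other group, and treated DKO was above untreated DKO. DKO against Null was 0.38 untreated and -0.56 after etoposide (edgeR adjusted p = 2.75e-06 and 1.15e-08). The corresponding values were 0.50 and -0.29 for Aga, which cuts asparagine from glycans, 0.99 and -1.64 for Hyal1, and 0.44 and -0.34 for Prcp, a carboxypeptidase. Hgsnat and Slc38a9 went from lower to higher, with -0.15 and 0.11 for Hgsnat and -0.49 and 0.26 for Slc38a9. For the treated genotypes, without treated Null library 1 or treated DKO library 2 or 3, Hgsnat lost its call, at 0.078, 0.076 or 0.092, and without treated Null library 1 or 2 or treated DKO library 1 or 3, Slc38a9 lost its call, at 0.26, 0.21, 0.21 or 0.21. Both calls also ended with DESeq2's size factors (0.045 and 0.20).

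Tfeb and Tfe3 fell with etoposide in both genotypes, and Mitf fell in DKO only. Tfeb fell in Null by 1.91 (edgeR adjusted p = 1.12e-11) and in DKO by 1.42 (adjusted p = 2.57e-08). The interaction for Tfeb was 0.49 and passed (adjusted p = 0.0156), but without treated DKO library 3, Tfeb lost its call, at 0.33. Tfe3 was at -0.72 in Null and -0.44 in DKO (adjusted p = 6.78e-11 and 6.75e-08), an interaction of 0.28 (adjusted p = 0.0007). Mitf rose by 1.35 in Null and fell in DKO (log2 fold change -1.63), an interaction of -2.98 (adjusted p = 3.04e-14).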
